A study of Oryza sativa with 4 samples.

Results

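The stress-responsive NAC genes described here are 7 rice loci chosen by their identifiers: SNAC1 (LOC_Os03g60080), SNAC2 (LOC_Os01g66120), OsNAC3 (LOC_Os07g12340), OsNAC4 (LOC_Os01g60020), OsNAC5 (LOC_Os11g08210), OsNAC10 (LOC_Os11g03300) and NAC131 (LOC_Os12g03040). All 7 were among the 45027 loci of the read count table, and all 7 passed the filter on low counts that left 22615 loci. RNA-seq was run on young panicles of the rice cultivar Dongjin, with 2 libraries of the wild type (WT) genotype and 2 of genotype emf2b-1. EMF2B encodes a subunit of Polycomb repressive complex 2, which places the repressive mark H3K27me3 on chromatin. Both genotypes grew in a greenhouse under natural light (30°C daytime, 25°C nighttime), and both were sampled at inflorescence stage 7, with panicles of 0.3 to 1.5 cm. No stress treatment is named in the labels, and how many plants went into a library is not stated there.

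NAC proteins are plant transcription factors that share a DNA-binding NAC domain. Some direct development, such as organ boundaries and secondary walls. Those of the stress-responsive group are known in rice from seedlings and leaves, where drought, salt, cold, wounding, pathogens or the hormone abscisic acid (ABA) raise their transcripts and where overexpression of several of them improved stress tolerance. Their known targets include genes for late embryogenesis abundant (LEA) proteins, which protect cells that lose water.

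The libraries are called by genotype and barcode. Totals were 12932305 counted reads in emf2b GAGT and 16926873 in emf2b TTAG, against 25382519 in WT ACCC and 32087683 in WT CGTA. EMF2B itself fell, from 37.1 and 38.8 counts-per-million (CPM, reads scaled to the library total) in WT to 9.90 and 11.9 CPM in emf2b (edgeR adjusted p = 0.00661), so its reads were reduced and not lost. Of 7 young panicle markers, OSH1, OsMADS14, OsMADS15 and OsMADS34 were well counted in all libraries, while FZP had 1 read in each emf2b library and 0 in WT. MEL1, a germ cell marker in that list, fell, 4 others did not pass the test and 2 were not tested (DESeq2 called 1 higher and 1 lower of 6), and the summed level of the 7 markers was 365 to 380.0 CPM in emf2b and 343 to 353 CPM in WT. The 5 green leaf markers summed to 56.4 and 106 CPM in emf2b and to 104 and 111 CPM in WT, and LHCB5 was the 1 of them that fell. The 5 leaf senescence markers summed to 101 and 73.7 CPM in emf2b GAGT and TTAG and to 59.9 and 68.7 CPM in WT. Of these, OsNAP was at 0 reads in both WT libraries and was the 1 that rose. Of 4 reference genes 0 were called by edgeR or DESeq2 or had an unadjusted p under 0.05, and the largest changes were -0.36 for ACT1 and -0.27 for eEF1A. The part of these markers in the results on the NAC genes was not tested. In such bulk samples, more cells of a type and more RNA per cell cannot be told apart.

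Among the 7 genes, 3 rose in emf2b, 0 fell and 4 did not pass the test (edgeR quasi-likelihood test, Benjamini-Hochberg adjustment over all tested loci, threshold 0.05). OsNAC10, NAC131 and SNAC2 were the 3 that rose. Over all tested loci 13.5% were called higher and 2.21% lower. That share depended on the level of a locus: 4.38% were called higher among loci whose mean over the 4 libraries was 5 CPM or more, and 27.7% among those below. At or above this level stood 4 of the genes (SNAC2, OsNAC5, OsNAC10 and NAC131), which include the 3 that rose, and 0 of the 3 genes below it were called. The fitted log2 fold changes ran from 0.92 to 3.37 with a median of 2.09, beside a median of 0.01 over all tested loci. At an unadjusted p under 0.05, 6 genes were higher and 0 lower, beside 4621 higher and 1849 lower of all 22615 tested loci. DESeq2 called 3 genes higher and 0 lower, beside 2551 higher and 699 lower of those loci. CPM ranges of the genotypes did not overlap for 5 of the genes, each higher in emf2b, against a share of 32.4% over all tested loci.

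**Figure D1:**
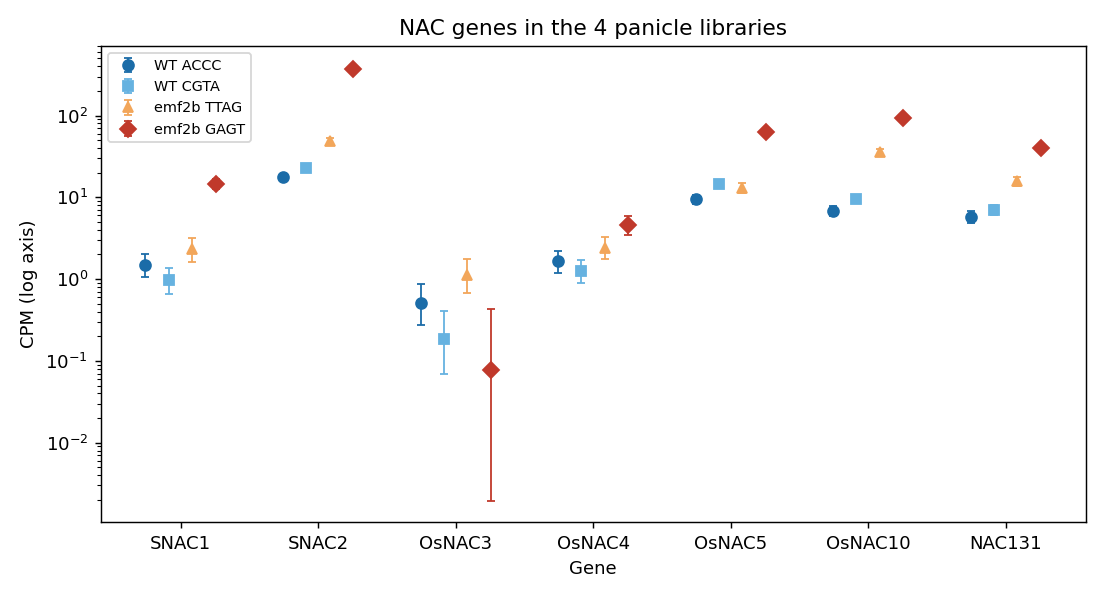
CPM of the 7 NAC genes (x axis) in each of the 4 libraries on a log axis, with exact 95% Poisson intervals that cover counting error only. For 6 genes emf2b GAGT is the highest library, at 375 CPM for SNAC2; OsNAC3 is highest in emf2b TTAG.

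SNAC1, on chromosome 3, is known from guard cells and from drought resistance of overexpressing plants. It had 188 reads (14.5 CPM) in emf2b GAGT, 39 reads (2.30 CPM) in emf2b TTAG, 38 reads (1.50 CPM) in WT ACCC and 31 reads (0.966 CPM) in WT CGTA. Both emf2b libraries were above both WT libraries, but TTAG only narrowly, with an exact 95% Poisson interval of 1.64 to 3.15 CPM that overlapped the 1.06 to 2.05 CPM of WT ACCC. Mean CPM was 8.42 ± 8.65 in emf2b against 1.23 ± 0.38 in WT (SD, n = 2 per genotype). The log2 fold change was 2.73 ± 0.82 (SE) and was not called (edgeR adjusted p = 0.0658). It was called by DESeq2 (adjusted p = 0.00241). The edgeR log2 fold change was 3.57 without emf2b TTAG and 0.82 without emf2b GAGT.

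SNAC2, on chromosome 1 and also named OsNAC6, responds in rice to cold, salt, drought, ABA and blast infection. Its reads numbered 4850 (375 CPM) in emf2b GAGT, 831 (49.1 CPM) in TTAG, 452 (17.8 CPM) in WT ACCC and 733 (22.8 CPM) in CGTA. The groups did not overlap, and GAGT stood far above the other 3 libraries. GAGT was at 18.5 times the WT mean and TTAG at 2.42 times. SNAC2 rose by a log2 fold change of 3.37 ± 0.81 (SE; edgeR adjusted p = 0.0316). Without emf2b GAGT the change was 1.17, and without TTAG it was 4.20. With 1 emf2b library left, the spread came from the WT pair alone. Calls of such fits, given below, leave out the spread between GAGT and TTAG. The SNAC2 call ended with robust dispersion estimates (edgeR adjusted p = 0.171), with a stricter count filter (edgeR adjusted p = 0.0587) and with DESeq2 (adjusted p = 0.0594).

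OsNAC10 (chromosome 11) and NAC131 (chromosome 12) lie in a pair of duplicated chromosome segments of rice. Root-directed expression of OsNAC10 improved drought tolerance, and silencing of either gene is known to weaken defence against the blast fungus. OsNAC10 had 1217 reads (94.1 CPM) in emf2b GAGT and 604 reads (35.7 CPM) in emf2b TTAG, with 173 reads (6.82 CPM) in WT ACCC and 305 reads (9.51 CPM) in WT CGTA. Both emf2b libraries were clear of WT, at 11.5 and 4.37 times its mean. It rose by a log2 fold change of 2.96 ± 0.46 (SE; edgeR adjusted p = 0.0110), and by 2.03 without emf2b GAGT.

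NAC131 had 518 reads (40.1 CPM) in emf2b GAGT, 265 reads (15.7 CPM) in emf2b TTAG, 146 reads (5.75 CPM) in WT ACCC and 225 reads (7.01 CPM) in WT CGTA. The order of the libraries was that of OsNAC10 and SNAC2, with no overlap between the genotypes and GAGT highest. NAC131 rose by a log2 fold change of 2.09 ± 0.44 (SE; edgeR adjusted p = 0.0204), and by 1.19 without emf2b GAGT. The OsNAC10 and NAC131 calls held under the 8 alternatives that used all 4 libraries. All 3 calls ended when WT ACCC was left out (edgeR adjusted p = 0.204 for SNAC2, 0.102 for OsNAC10 and 0.170 for NAC131) or WT CGTA (0.260, 0.131 and 0.203). These fits called 189 and 20 of all loci, against 3556 with all 4 libraries, while the log2 fold changes of the 3 genes stayed between 1.97 and 3.57.

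**Figure D2:**
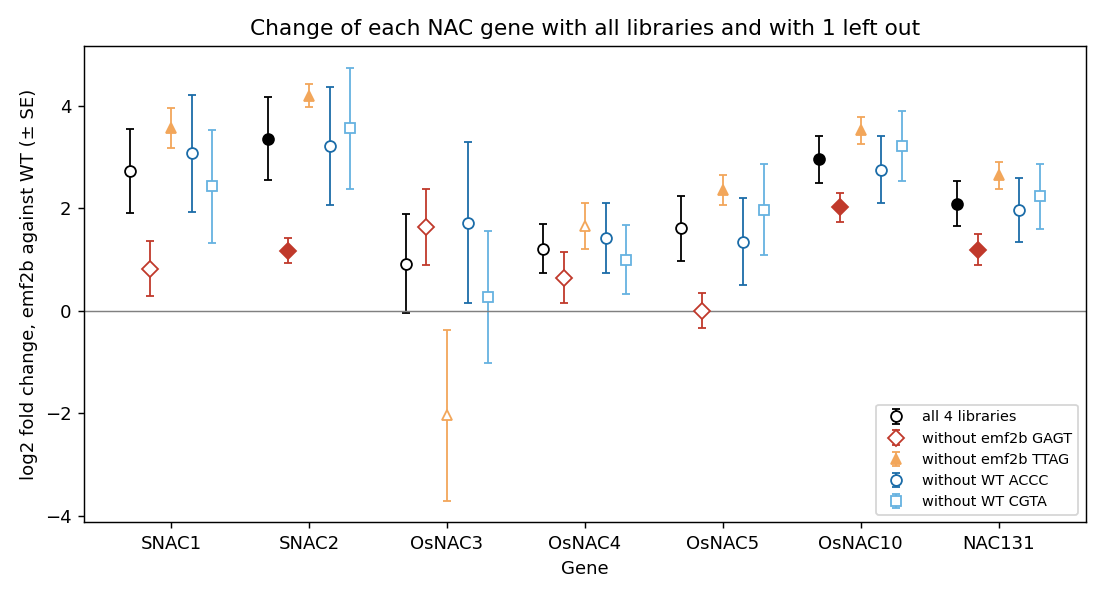
Fitted log2 fold change (± SE) of each NAC gene, emf2b against WT, with all 4 libraries and with each library left out; filled symbols have an edgeR adjusted p under 0.05. Leaving out emf2b GAGT lowers 6 of the genes, OsNAC5 to 0.00, and leaving out emf2b TTAG turns OsNAC3 to -2.04.

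Within a library, the ratio of OsNAC10 to NAC131 reads is free of the scaling between libraries, and it was higher in both emf2b libraries than in either WT library. OsNAC10 reads made up 70.1% (exact 95% binomial interval 67.9 to 72.3) of the reads of the pair in emf2b GAGT and 69.5% (66.3 to 72.6) in emf2b TTAG. In WT the share was 54.2% (48.6 to 59.8) in ACCC and 57.5% (53.2 to 61.8) in CGTA. The emf2b libraries thus had almost the same share although the summed CPM of the pair differed between them, and no emf2b interval overlapped a WT interval. The OsNAC10 to NAC131 read ratio was 2.35 and 2.28 in emf2b and 1.18 and 1.36 in WT. The genes are close paralogs, so the counting may have split shared reads between them, and no test over conditions was run on the ratio.

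**Figure D3:**
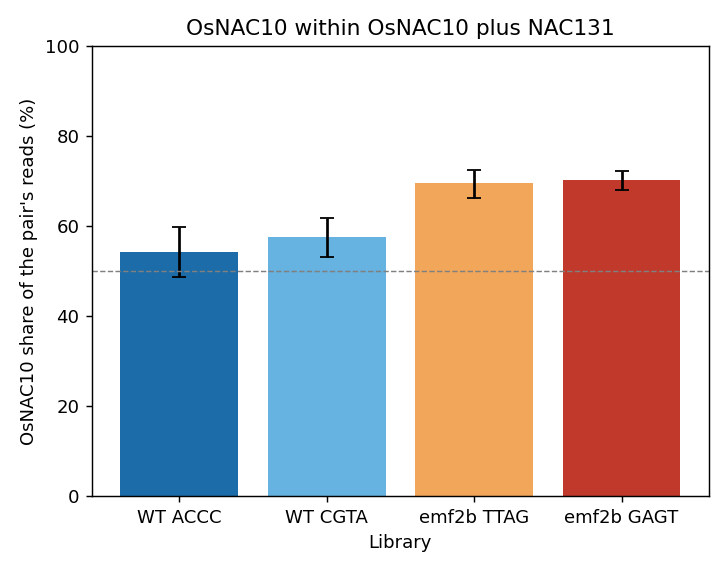
Reads of OsNAC10 as a percentage of the reads of OsNAC10 and NAC131 together in each library, with exact 95% binomial intervals and a dashed line at an equal split. Both emf2b libraries lie near 70%, at 69.5% and 70.1%, above the 54.2% and 57.5% of WT.

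OsNAC5, on chromosome 11, is a gene tied to ABA responses and leaf senescence whose protein acts on LEA genes. It had 805 reads (62.2 CPM) in emf2b GAGT, 219 reads (12.9 CPM) in emf2b TTAG, 239 reads (9.42 CPM) in WT ACCC and 472 reads (14.7 CPM) in WT CGTA. GAGT alone was high, and TTAG fell between the WT libraries. The log2 fold change of 1.61 ± 0.64 (SE) was not called (edgeR adjusted p = 0.144). It was 0.00 without emf2b GAGT and 2.37 without emf2b TTAG. Of the reads of all 7 genes, OsNAC5 had 10.5% (exact 95% binomial interval 9.86 to 11.2) in emf2b GAGT and 10.9% (9.53 to 12.3) in emf2b TTAG, against 21.7% (19.3 to 24.2) and 26.0% (24.0 to 28.1) in WT ACCC and CGTA. The share was therefore lower in both emf2b libraries, although the OsNAC5 level was highest in GAGT and in TTAG lay between the WT libraries.

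SNAC2 took 63.5% (exact 95% binomial interval 62.4 to 64.6) of the reads of the 7 genes in emf2b GAGT and 40.5 to 41.2% in the other 3 libraries. OsNAC10 took 29.9% (27.9 to 32.0) in emf2b TTAG and 15.7 to 16.8% in the other 3. The make-up of the group thus differed between the emf2b libraries as well as from WT. Summed over the 7 genes, the level was 591 CPM in GAGT, 119 CPM in TTAG, and 43.5 and 56.5 CPM in WT.

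OsNAC4, on chromosome 1, encodes a factor known to promote hypersensitive cell death during infection. It had 59 reads (4.56 CPM) in emf2b GAGT and 41 (2.42 CPM) in TTAG, against 42 (1.65 CPM) in WT ACCC and 40 (1.25 CPM) in CGTA. The genotypes did not overlap, but the Poisson interval of TTAG, 1.74 to 3.29 CPM, overlapped that of WT ACCC, 1.19 to 2.24 CPM. The log2 fold change was 1.22 ± 0.48 (SE) and was not called (edgeR adjusted p = 0.144), nor under any of the 12 alternatives run for it.

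OsNAC3, on chromosome 7, belongs to the ABA- and stress-induced genes and was the least counted of the 7. It had 1 read in emf2b GAGT, 19 in emf2b TTAG, 13 in WT ACCC and 6 in WT CGTA, or 0.0773, 1.12, 0.512 and 0.187 CPM. Its emf2b libraries were the lowest and the highest of the 4, so the groups overlapped completely. The log2 fold change of 0.92 ± 0.96 (SE; edgeR adjusted p = 0.587) was -2.04 without emf2b TTAG. At loci with no WT read, emf2b GAGT had a median of 1 read and TTAG of 2, with 95th percentiles of 5 and 11. Such loci all have an emf2b read, since every counted locus had a read in some library. They are thus no background level for the 1 and 19 reads of OsNAC3.

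The emf2b libraries differed from each other at 6 of the genes in the same direction. The ratio of GAGT to TTAG in CPM was 7.64 for SNAC2 (exact 95% interval of the read ratio 7.10 to 8.23), 6.31 for SNAC1 (4.45 to 9.15) and 4.81 for OsNAC5 (4.14 to 5.61). It was 2.64 for OsNAC10 (2.39 to 2.91), 2.56 for NAC131 (2.20 to 2.98) and 1.88 for OsNAC4 (1.24 to 2.88). None of these intervals reached 1, and those of the first 3 genes did not overlap those of the last 3. OsNAC3 went the other way, with a ratio of 0.0689 (0.00166 to 0.433) that rests on 1 read. Among all tested loci, 40.5% were higher in GAGT than in TTAG, and 0.340% had a ratio as high as SNAC2, 0.433% as SNAC1 and 0.690% as OsNAC5. For OsNAC10, NAC131 and OsNAC4 the percentages were 2.04, 2.26 and 4.86. These intervals compare libraries and not conditions, and cover counting error only.

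The WT libraries lay closer together. The ratio of ACCC to CGTA was 0.780 (exact 95% interval 0.692 to 0.878) for SNAC2, 0.717 (0.592 to 0.867) for OsNAC10 and 0.640 (0.546 to 0.749) for OsNAC5. For NAC131 it was 0.820 (0.661 to 1.01), and the intervals of SNAC1, OsNAC3 and OsNAC4 also held 1. Of all tested loci, 43.2% had WT libraries at least as far apart as SNAC2, 33.0% as OsNAC10 and 24.2% as OsNAC5.

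**Figure D4:**
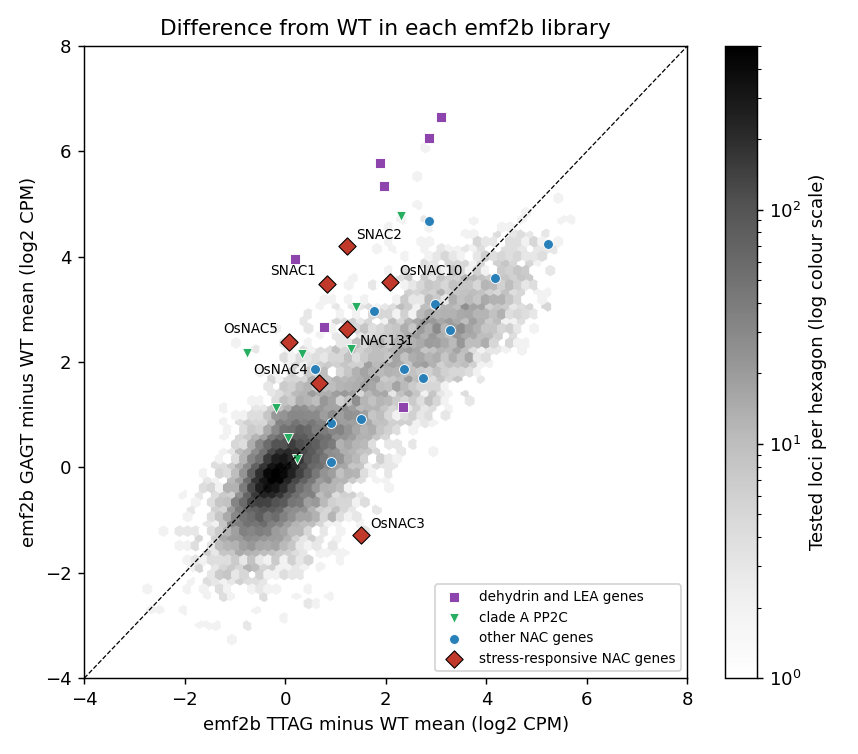
Difference from the WT mean in log2 CPM (prior count 2) in emf2b TTAG (x axis) and emf2b GAGT (y axis), with all tested loci as grey hexagons and the dashed line marking equal differences. Above the line lie 6 of the 7 NAC genes, 6 of 7 dehydrin and LEA genes and 4 of 12 other NAC genes, OsNAP the farthest. By CPM, 40.5% of all tested loci were higher in GAGT.

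The profile of each gene over the 4 libraries was compared by the Euclidean distance between log2 CPM values centred on their own mean. OsNAC10 and NAC131 were nearest to each other (0.88), as were SNAC1 and SNAC2 (0.90). NAC131 was also the nearest of the 7 genes to OsNAC5 and OsNAC4 (both 0.98), while OsNAC3 was no closer than 2.88 to any. Among 39 tested genes of the stress and NAC lists, OsNCED3, for an enzyme of ABA synthesis, was nearest to OsNAC5, at 0.13 beside a profile length of 2.09 for OsNAC5 itself. OsNCED3 stood at 101 CPM in emf2b GAGT and 21.5 CPM in TTAG, and WT ACCC and CGTA had 17.1 and 23.8 CPM, so it was high in GAGT alone as OsNAC5 was. OsLEA3-1, a LEA gene, was nearest to NAC131 (0.47) and SNAC1 (0.80), the dehydrin gene DIP1 to SNAC2 (0.86), the PP2C gene OsPP2C30 to OsNAC10 (0.75), OsDREB2A to OsNAC4 (0.57) and SNAC3 to OsNAC3 (1.89). These distances describe 4 libraries, in which 1 high library can set the order.

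Other NAC genes also rose, most of them with emf2b TTAG as the highest library. That library had 3916 loci at 0 reads, against 9413 in emf2b GAGT, 13349 in WT ACCC and 14416 in WT CGTA. Every counted locus had a read in at least 1 library, so a locus with no WT read has an emf2b read by construction. Of loci with no WT read, 86.8% had a read in TTAG and 52.0% in GAGT. The part of this in the weakly counted NAC genes was not tested. Of 19 other NAC genes listed, 12 were tested, of which 7 rose, 0 fell and 5 did not pass (edgeR, threshold 0.05). At an unadjusted p under 0.05, 8 were higher and 0 lower, beside 4621 higher of all 22615 tested loci. DESeq2 called 5 higher and 0 lower of 17, beside 2854 higher of the 26699 loci that it tested. The median log2 fold change of the 12 tested genes was 2.55, also with OsNAP at its lower bound. A gene could pass the count filter through the emf2b libraries alone, as OMTN1, OMTN3 and OsNAP did, among others. Such genes can come out higher but hardly lower. The counts and the median are therefore not read as a result about the list. OMTN3, one of the NAC genes cut by the microRNA miR164, had 77 and 210 reads in emf2b GAGT and TTAG and 7 and 6 in WT ACCC and CGTA, and rose by a log2 fold change of 5.28 ± 0.58 (SE; edgeR adjusted p = 0.00650). OMTN1, of the same group, had 16 and 33 reads in emf2b and 1 and 0 in WT (edgeR adjusted p = 0.0105). OMTN3 was higher in TTAG than in GAGT, unlike SNAC2, OsNAC10 and NAC131. Its CPM ratio of GAGT to TTAG was 0.480 (exact 95% interval 0.365 to 0.626). The ratio of 0.635 for OMTN1 had an interval that holds 1 (0.326 to 1.19).

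OsSWN1, a NAC gene of secondary wall formation, had 29 and 36 reads in emf2b and 2 and 11 in WT, and rose by a log2 fold change of 3.22 ± 0.64 (SE; edgeR adjusted p = 0.0181). OsNAP, a NAC gene of leaf senescence, had 29 and 10 reads in emf2b and 0 in both WT libraries, at least 25.0-fold higher against a floor of 3 reads over the WT group (edgeR adjusted p = 0.0295). Of the 12 tested genes, 4 were higher in GAGT than in TTAG, with a median ratio of 0.66, against 6 of 7 and 2.64 for the stress-responsive group. In each of the other 5 lists below, most tested genes were also higher in GAGT. These were 7 of 8 clade A PP2C genes (median ratio 2.72), 6 of 7 dehydrin and LEA genes (10.2) and 6 of 8 ABA genes (1.26), among others. Over all tested loci 40.5% were higher in GAGT, with a median ratio of 0.92, so the 4 of 12 is near the general share. The count of called other NAC genes was 3 of 6 with the stricter filter and 4 of 12 with legacy dispersions. It was 6 without emf2b GAGT and 4 without emf2b TTAG, and it was 1 (OMTN3) and 0 without WT ACCC and WT CGTA. No gene of the other 5 lists below was called without either WT library. Of the 12 tested other NAC genes, 11 had a mean under 5 CPM, the range in which 27.7% of all tested loci were called higher. That share comes from the same count filter.

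**Figure D5:**
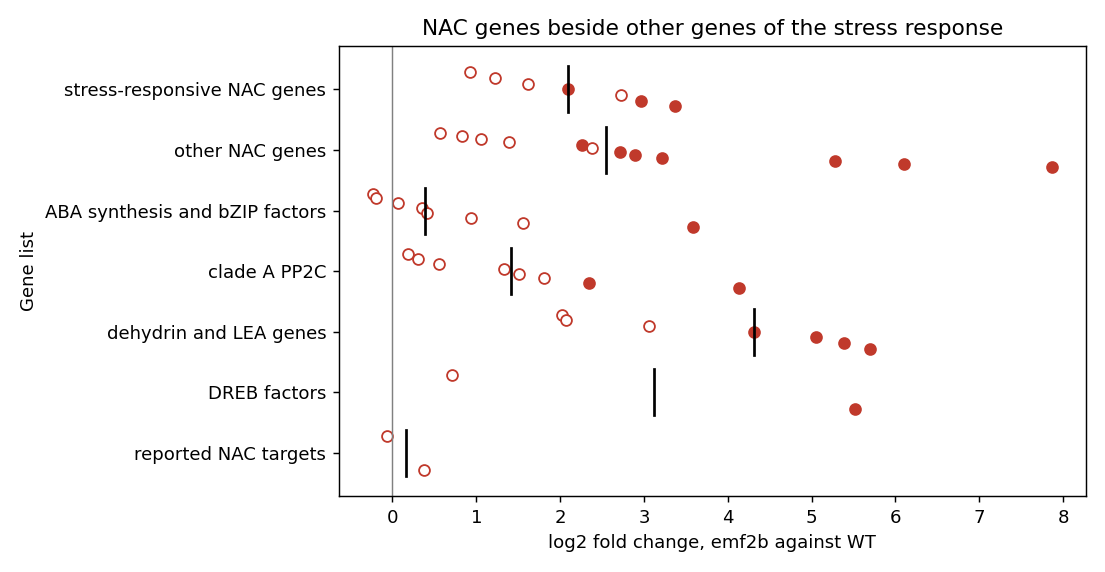
Fitted log2 fold change, emf2b against WT (x axis), of each tested gene in the 7 stress-responsive NAC genes and in 6 other lists (y axis); filled points have an edgeR adjusted p under 0.05 and black bars are list medians. The medians are 2.09 for the stress-responsive NAC genes, 2.55 for other NAC genes and 4.31 for dehydrin and LEA genes.

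Of 8 tested genes of ABA synthesis and ABA-responsive bZIP factors, 1 rose, 0 fell and 7 did not pass, with a median log2 fold change of 0.38, and this count is near the 13.5% called higher over all tested loci. At an unadjusted edgeR p under 0.05, 2 were higher and 0 lower, beside 4621 higher of all 22615 tested loci. DESeq2 called 1 higher and 0 lower, beside 2551 higher of the 22615 loci. The gene that rose was OsABI5, a bZIP factor gene, with 20 reads in each emf2b library and 4 and 2 in WT (edgeR adjusted p = 0.0176). OsABI5 passed the count filter through the emf2b libraries alone. TRAB1, another bZIP gene of ABA responses, had a log2 fold change of 0.07 ± 0.19 (SE).

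Of 8 tested clade A PP2C genes, for phosphatases that restrain ABA signalling and are themselves induced by ABA, 2 rose, 0 fell and 6 did not pass (median 1.42). Over all tested loci 13.5% were called higher. The share was 27.7% for loci with a mean under 5 CPM, as OsPP2C68 had, and 4.38% for the others. OsPP2C68 had 13.0 and 2.36 CPM in emf2b GAGT and TTAG, with 0.276 and 0.530 CPM in WT ACCC and CGTA (log2 fold change 4.14 ± 0.90 SE, edgeR adjusted p = 0.0229). OsPP2C30 had 41.7 and 13.7 CPM in emf2b, with 3.31 and 7.32 CPM in WT (2.34 ± 0.57 SE, edgeR adjusted p = 0.0324). The OsPP2C30 call ended without emf2b GAGT (edgeR adjusted p = 0.120), with robust dispersion estimates (0.0976), with the stricter count filter (0.0563) and after thinning to the smallest library (0.0530), and the PP2C count was then 1. It was 5 without emf2b TTAG. At an unadjusted edgeR p under 0.05, 4 PP2C genes were higher and 0 lower, beside 4621 higher of all 22615 tested loci. DESeq2 called 2 higher and 0 lower of 9, beside 2854 higher of the 26699 loci that it tested.

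Of the 7 dehydrin and LEA genes, 4 rose, 0 fell and 3 did not pass (median 4.31), beside 13.5% called higher over all tested loci. At an unadjusted edgeR p under 0.05, 7 were higher and 0 lower, beside 4621 higher of all 22615 tested loci. DESeq2 called 5 higher and 0 lower, beside 2551 higher of the 22615 loci. RAB16B had 170.3 and 14.8 CPM in emf2b GAGT and TTAG, with 1.02 and 2.43 CPM in WT, and rose by a log2 fold change of 5.69 ± 1.12 (SE; edgeR adjusted p = 0.0176). RAB16A, RAB16C and WSI18 were the others, with log2 fold changes of 5.39, 5.05 and 4.31. Like SNAC2 they stood far higher in GAGT, with ratios of GAGT to TTAG from 10.1 for WSI18 to 14.9 for RAB16C. RAB16A to RAB16C form a gene cluster and may share reads. RAB16D, next to RAB16C by identifier, went the other way and was not called. It had 11 reads in emf2b GAGT and 36 in TTAG, a CPM ratio of 0.400 (exact 95% interval 0.184 to 0.803). With robust dispersion estimates 0 of the 7 were called, and with the stricter count filter 2 of 6. Without emf2b GAGT the set of called genes changed: the RAB16C and WSI18 calls ended, and a gene not called with all 4 libraries was called.

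OsDREB1G, a factor gene of cold responses, had 17 and 15 reads in emf2b and 1 and 0 in WT (edgeR adjusted p = 0.0147). It was the 1 call among 2 tested DREB genes. Of loci with a mean under 5 CPM, as OsDREB1G had, 27.7% were called higher. OsDREB1G passed the count filter through the emf2b libraries alone. Without emf2b GAGT 2 of 4 DREB genes were called, without emf2b TTAG 3 were tested and called higher, and DESeq2 called 2 higher and 0 lower of 5. OsDREB2A, the drought-related DREB gene, had a log2 fold change of 0.72 ± 0.26 (SE; edgeR adjusted p = 0.115). Of the genes reported as targets of SNAC1, OsSRO1c and OsPP18, 0 were called by edgeR or DESeq2 and 0 had an unadjusted p under 0.05. OsSRO1c had a log2 fold change of 0.38 ± 0.50 (SE) and OsPP18 of -0.07 ± 0.23.

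Loci next to the NAC genes were also examined. The 2 loci on each side of every gene, by identifier order, came to 28, of which 14 were tested, and this window was chosen after the values of the genes were seen. Of these, 0 were called higher and 0 lower (edgeR), with 0 higher and 1 lower at an unadjusted p under 0.05. Over all tested loci 13.5% were called higher and 2.21% lower, so with 14 loci a count of 0 is not read as a difference from the rest. DESeq2 called 1 higher and 0 lower of 17. Their median log2 fold change was -0.08. The neighbours of SNAC2 on either side, LOC_Os01g66110 and LOC_Os01g66130, had log2 fold changes of 0.16 and -0.43 beside the 3.37 of SNAC2. Around OsNAC10 and OsNAC5 the 4 adjacent loci were too weakly counted to be tested.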

How the data were processed

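The authors deposited 1 table of raw read counts (whole numbers, 1 gene model per locus). The submitters' processing notes name TopHat2 2.0.5 and DESeq 1.10.1. Per the labels' protocols, 10 ng of total RNA were amplified to cDNA and read for 40 cycles. No source used here gives the counter, genome build, annotation or strand setting, so antisense, overlapping and near-identical genes cannot be resolved. Columns carry a genotype and a barcode but no replicate number. Nothing says that libraries came from separate plants, so p-values measure only the spread between these libraries, which may be technical. Libraries of a genotype differed beyond counting noise (chi-square per degree of freedom 39.7 for emf2b and 53.8 for WT).

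Loci were filtered with filterByExpr (minimum count 10, minimum total 15), which a locus can pass through the 2 libraries of 1 genotype alone. They were scaled by TMM and tested with the edgeR 4.0.16 quasi-likelihood F test with non-legacy dispersions in R 4.3.3 (2 residual degrees of freedom). The SE was taken as the size of the log2 fold change over the root of F. CPM used the library total, and a floor of 3 reads is 0.0935 to 0.232 CPM. Intervals are exact, at 95%, and cover counting error only. Alternatives were RLE factors, library totals, 2 other filters, robust and legacy dispersions, thinning, DESeq2 1.42.0 and leaving out each library; legacy dispersions were added after the data were seen.

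The members and lists were chosen with earlier results of these data known. Named in the text are all 7 members, up to 4 called genes of each other list by size of change (or the 2 largest changes without a call), and the nearest profiles. A few others are given for contrast (TRAB1, RAB16D, OSH1, OsMADS14, OsMADS15, OsMADS34 and FZP, and the neighbouring loci). The names of 4 members occur in a RefSeq gene table of assembly ASM3414082v1 on the same chromosome, those of 3 were not found there and rest on the member list. Of the 79 listed loci, 41 symbols were found on the same chromosome, 1 on another and 37 not at all. Those names rest on general knowledge. Sequences and promoter motifs were not analysed here.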

Additional observations from a re-analysis of the deposited data

How the results depend on the processing

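Changing the count filter, the depth or the libraries moved the number of called loci most. From 3556 loci called, the count was 1587 with the stricter filter (minimum count 30), 2320 after thinning to the smallest library, and 20 to 3927 with 1 library left out. Of the NAC genes 3 were called, and 0 to 5 with 1 library left out, the latter without emf2b TTAG. The stricter filter and robust dispersions left 2, OsNAC10 and NAC131. In the 6 other lists 15 genes were called, 6 with the stricter filter and 0 to 21 with 1 library left out. Every fit with 1 library left out has fewer samples, and its spread comes only from the genotype that kept both libraries. The cause of the larger loss without a WT library was not tested. OsNAC3 turned negative without emf2b TTAG (range -2.04 to 1.72 with 1 library left out). Of the other 6 genes, OsNAC5 was at 0.00 without emf2b GAGT and positive otherwise. The rest kept a positive log2 fold change under the 12 alternatives run for each. Over the loci of the main test the median log2 fold change was 0.01, and -0.12 without a count filter. DESeq2 called SNAC1, OsNAC10 and NAC131 and not SNAC2. No paired analysis was possible because the columns carry no replicate number. OsNAC3 rests on 1 to 19 reads per library.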
